A study of Mus musculus with 2 samples.

Results

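The cytosolic ribosomal protein genes were examined in RNA from the pleuroperitoneal folds of mouse embryos. Members were the listed symbols Rpsa, Rplp0, Rplp1 and Rplp2 and every symbol made of Rpl or Rps, a number and an optional letter suffix. Of the 100 symbols of this form, 10 Rps6k kinase genes and the 2 symbols Rps3a2 and Rps3a3 were left out, which gave 88 members of 38926 listed symbols. They comprised 77 genes of the ribosome itself, 31 of the small and 46 of the large subunit, called core genes here, and 11 other matches, mostly paralogs. The only group was wild-type pleuroperitoneal fold tissue at embryonic day 12.5, of mixed 129s/SvlmJ-C57/BL6J strain, in 2 libraries with 2 dissected fold pairs pooled in each. These folds give rise to connective tissue of the diaphragm. No mutant, treated or other control group was part of the comparison, and the data were collected to rank candidate genes for congenital diaphragmatic hernia.

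The cytosolic ribosome is built of ribosomal RNA and one copy of most of these proteins, apart from the acidic stalk proteins Rplp1 and Rplp2, which are present in pairs. The small subunit decodes the messenger RNA and the large subunit forms the peptide bond. Cells make the proteins in matched amounts, and the messenger RNAs begin with a run of pyrimidines at the cap through which mTOR signalling controls their translation. Mouse genomes also carry many processed pseudogenes of ribosomal protein messages, which are copies without introns whose sequence can be nearly the same as that of the parent gene.

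Replicate 1 held 26370253 counts and replicate 2 held 23255957. Levels are given as the deposited TPM, which is the count divided by the listed length of the gene and scaled so that both libraries have an equal total. All 8 marker genes of the pleuroperitoneal fold, Wt1 and Gata4 among them, were at 1 TPM or more in both libraries, with sums of 1122 and 1169 TPM. The 5 muscle markers summed to 2737 and 2820 TPM and 5 erythroid markers to 5519 and 5174 TPM, so markers of muscle and blood cells were detected too. Liver markers were at 1 TPM or more for 5 of 7 genes, with sums of 111 TPM in replicate 1 and 289.9 TPM in replicate 2. The 4 leukocyte markers summed to 247 and 233 TPM, and the 2 lung epithelial markers to 0 and 0.171 TPM. In bulk tissue, fewer cells of a type and less RNA per cell cannot be told apart.

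Stretches of coding sequence show how close a copy can be to its parent. The first is bases 201 to 260 of the coding sequence of Rps3a1, a small subunit protein gene on chromosome 3, beside the same bases in 2 processed pseudogenes on chromosomes 13 and 14. The second is bases 160 to 219 of Rpsa, the small subunit protein also known as the laminin receptor, on chromosome 9, beside its copy on chromosome 3. Sequences are GENCODE M21 transcripts of GRCm38, read 5′ to 3′, and capitals mark bases of the copy that differ from the parent.
Rps3a1: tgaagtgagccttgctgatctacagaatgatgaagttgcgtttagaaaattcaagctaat
Rps3a3: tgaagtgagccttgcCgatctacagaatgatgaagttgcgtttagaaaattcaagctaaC
Rps3a2: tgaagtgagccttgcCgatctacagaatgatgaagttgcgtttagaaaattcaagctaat
Rpsa: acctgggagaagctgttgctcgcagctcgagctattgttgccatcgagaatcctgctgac
Rpsa-ps10: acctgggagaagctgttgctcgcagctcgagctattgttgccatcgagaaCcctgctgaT
Over the whole coding sequence, Rps3a3 differed from Rps3a1 at 9 of 792 bases and Rps3a2 at 4, and Rpsa-ps10 differed from Rpsa at 6 of 885 bases. A short read from most of these positions is the same in parent and copy, and the deposited counts of both kinds of row are given below.

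The core genes were all detected and had a median above that of other expressed genes, but their levels ran from 1.39 to 3257 TPM. Their median was 73.3 TPM in replicate 1 and 69.0 TPM in replicate 2, where the median of protein-coding genes at 1 TPM or more in both libraries was 26.7 and 27.2 TPM. All 77 core genes were at 1 TPM or more in both libraries, 69 were at 10 or more, 30 at 100 or more and 8 at 1000 or more. The 90th percentile of the core genes was 89.2 times the 10th percentile in replicate 1 and 91.5 times in replicate 2. All 88 members together held 1.10% of the counts in replicate 1 (95% Clopper-Pearson interval 1.10 to 1.11%) and 1.01% in replicate 2 (1.00 to 1.01%). Intervals of this kind cover counting error only, since reads that carry no molecular identifier need not be separate molecules.

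On the TPM scale, a few genes made up most of the total. Rplp1, an acidic protein of the large subunit stalk (chr9:61913284-61914542, minus strand), had the highest mean, with 3257 and 2806 TPM in replicates 1 and 2. Rpl8, a protein near the peptidyl transferase centre (chr15:76904078-76906314, plus strand), was next at 3109 and 2816 TPM, and was the higher of these in replicate 2. Rpl4, whose long loop lines the exit tunnel (chr9:64173375-64178666, plus strand), stood at 2722 and 2712 TPM. These 3 genes made up 35.3% and 35.0% of the TPM of all core genes, and the 10 highest made up 67.4% and 68.1%. The lower 38 genes together held 4.18% and 4.17%. Of the counts of the core genes, which are not divided by length, the 3 genes held 24.4% and 24.5% and the 10 highest by TPM held 48.0% and 48.9%.

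In the small subunit, Rps15, a protein of the head of the subunit, was at 1642 and 1521 TPM. Rps26, a protein at the exit channel for messenger RNA, was at 1079 and 1006 TPM, and Rps14, a protein of the platform of the subunit, at 747 and 686 TPM. Each was somewhat lower in replicate 2. The large subunit genes Rpl32 (1219 and 1124 TPM) and Rplp0 (888 and 950 TPM), the base of the stalk, were also among the 10 highest.

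The lowest core genes were below the median of protein-coding genes at 1 TPM or more in both libraries. Each nevertheless encodes a protein of the same particle. Rps29 (chr12:69157722-69159186, minus strand) was at 3.23 and 5.16 TPM from 19 and 26 counts. Rps27 (chr3:90212522-90213651, minus strand) was at 1.39 and 7.01 TPM from 3 and 13 counts, so its level was poorly fixed. Rps6, the protein phosphorylated by S6 kinase downstream of mTOR (chr4:86854660-86857412, minus strand), was at 5.28 and 3.30 TPM. The next genes upward were small subunit genes Rps13 (7.29 and 5.20 TPM) and Rps16 (6.72 and 6.14 TPM). They were followed by large subunit genes Rpl19 (8.76 and 6.86 TPM), Rpl38 (9.79 and 6.60 TPM), Rpl23a (10.6 and 9.75 TPM), Rpl11 (11.0 and 12.04 TPM) and Rpl21 (11.4 and 11.9 TPM). None of these 10 genes came near the middle of the core genes in either library.

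**Figure D1:**
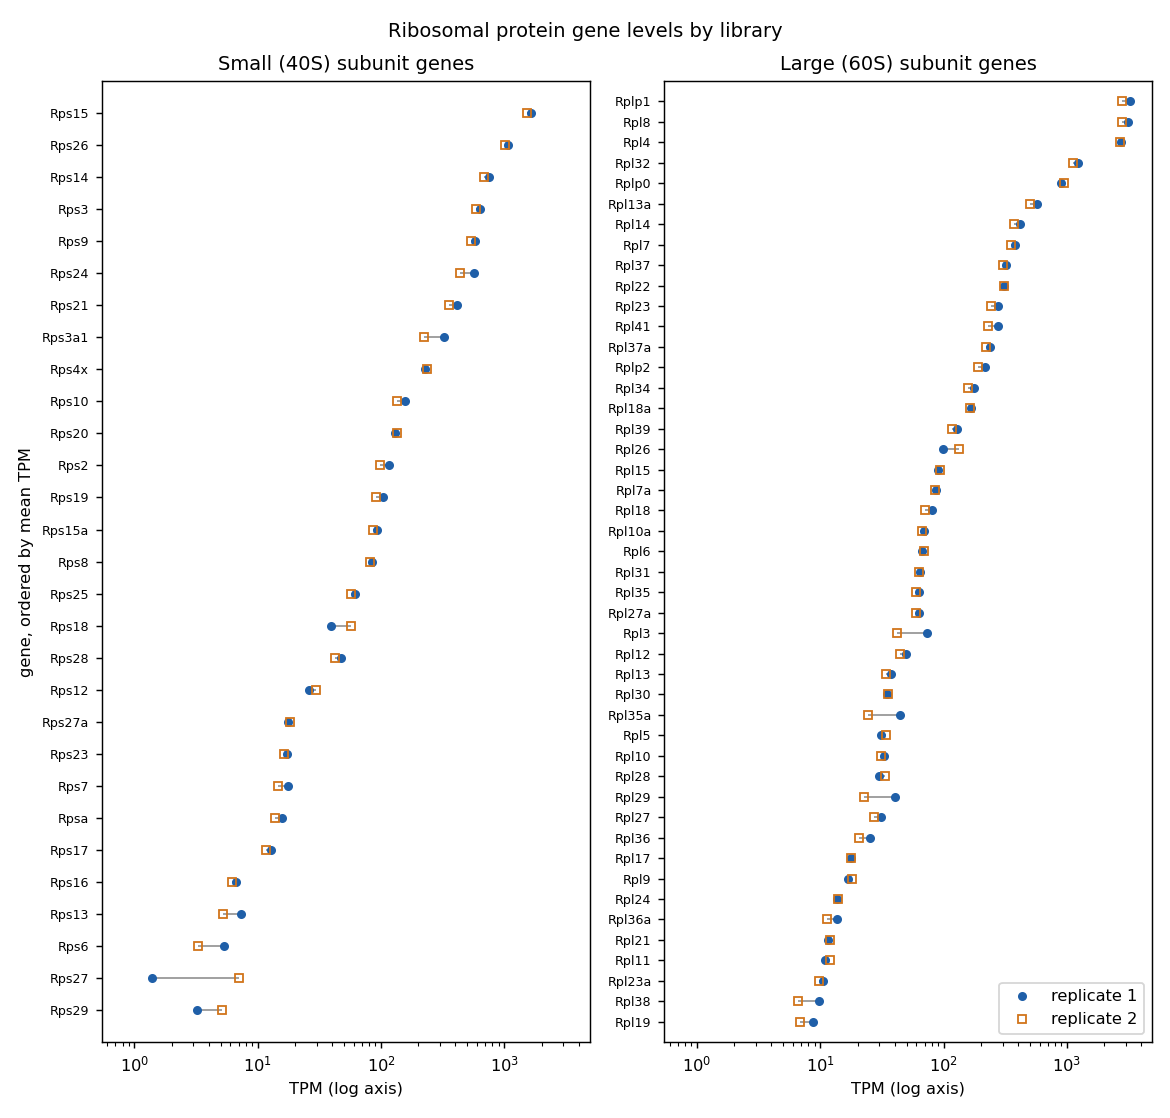
TPM (log axis) of core genes in replicate 1 (filled circles) and replicate 2 (open squares), with a line joining the values of a gene and genes ordered by mean TPM within each subunit. Levels run from 1.39 TPM (Rps27, replicate 1) to 3257 TPM (Rplp1, replicate 1), and the 2 libraries place the genes in nearly the same order. The row listed as Rpl24 carries the span of another gene.

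The order of the genes was the same in both libraries apart from small shifts. The rank correlation (Spearman) of TPM between the libraries was 0.993 across the 77 core genes, which share a library and its depth. The coefficient of variation over the 2 libraries had a median of 6.39%. Neighbours in the order, such as Rplp1 and Rpl8 or Rps27 and Rps29, overlapped between libraries. The small subunit median was 92.8 and 86.1 TPM and the large subunit median was 68.4 and 65.2 TPM, a gap far smaller than the range within either subunit.

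The spread was smaller in 3 other lists of the translation machinery. On mean TPM over both libraries, the 90th percentile was 88.3 times the 10th among the core cytosolic genes, and 6.29 times among 76 mitochondrial ribosomal protein genes. It was 7.36 times among 37 translation factors and 5.13 times among 55 ribosome biogenesis genes. These ratios are a description of the lists, with no test. Mitochondrial ribosomal protein genes had medians of 56.7 and 55.9 TPM and were led by Mrpl52 (261 and 225 TPM), Mrpl42 (199.8 and 186 TPM) and Mrpl28 (167 and 151 TPM). Translation factors had medians of 209 and 215 TPM, above the core genes, and were led by the elongation factors Eef1a1 (2516 and 2590 TPM), Eef2 (2365 and 2430 TPM) and Eef1b2 (664 and 637 TPM).

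**Figure D2:**
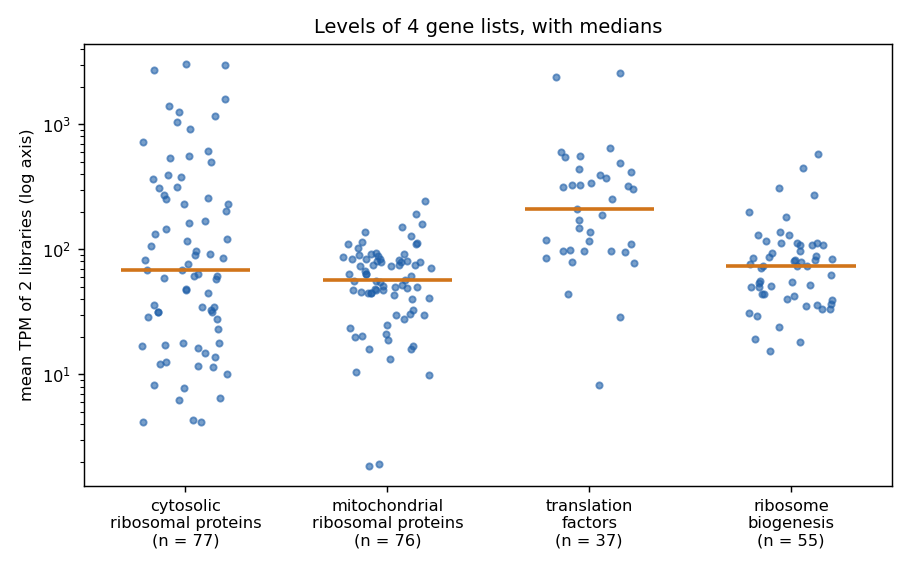
Mean TPM of the 2 libraries (log axis) for each gene of 4 lists, with points spread sideways for legibility and a bar at the median of each list. The 77 core cytosolic genes reach above the other lists, and below translation factors and ribosome biogenesis. The lowest mitochondrial ribosomal protein gene, at 1.86 TPM, lies below every core gene. The core median is 68.6 TPM, against 56.4 for mitochondrial ribosomal proteins, 212 for translation factors and 74.0 for ribosome biogenesis.

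Ribosome biogenesis genes, 55 of 58 of which were listed, had medians of 75.8 and 74.7 TPM. Their 3 highest were the nucleolar proteins Npm1 (589.8 and 572 TPM) and Ncl (444 and 452 TPM) and the processing factor Rrp1 (309 and 309 TPM). A list of 10 genes of the p53 response to failed ribosome assembly and of growth control by Myc and mTOR had medians of 46.6 and 44.7 TPM. Cdkn1a, a cell cycle inhibitor activated by p53, was at 119 and 122 TPM, Trp53 itself at 96.8 and 97.2 TPM, and Myc, a driver of ribosome production, at 78.4 and 85.5 TPM. All 37 translation factors, 55 biogenesis genes and 10 surveillance and growth genes were at 1 TPM or more in both libraries.

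Other ribosomal proteins carry symbols of another form. Gnb2l1, the older symbol of Rack1, a scaffold on the small subunit, was at 806 and 796 TPM. Fau, a fusion of a ubiquitin-like protein with a small subunit protein, was at 27.9 and 25.2 TPM. The first fell near the top of the range of the core genes and the second below their median.

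Genes mutated in Diamond-Blackfan anaemia, a failure of red cell production, and genes whose mutation alters patterning or the skeleton in mice lay along the same range. The 17 genes of the first list had medians of 46.9 and 42.4 TPM. The highest were Rps26, Rps24 (565 and 435 TPM) and Rps10 (155 and 135 TPM), and the lowest were Rps29, Rps27 and Rpl11. Rps19, the gene first linked to the disease, was at 103 and 91.2 TPM. In the list of 6 mouse patterning mutants, the 3 highest were Rps20 (130 and 136 TPM), Rps19 and Rpl27a (63.2 and 59.2 TPM). Rpl38, whose loss alters the axial skeleton, was at 9.79 and 6.60 TPM. The row listed as Rpl24, another gene of that list, holds a different gene, as described below.

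The level of a core gene followed how much of its coding sequence was its own. For each gene, the share of 50-base stretches of the coding sequence found in no transcript of another annotated gene was computed. Of the 77 genes, 30 had no such stretch, and their mean TPM over the libraries ran from 4.20 to 253 with a median of 17.5. These 30 include Rpl24, whose listed row holds another gene, as described below, and which was kept here and in the correlations. The 27 genes with up to 20% unique coding sequence had a median of 86.0 TPM (14.7 to 314). The 9 genes between 20 and 50% had a median of 500.0 TPM (167 to 3031), and the 11 genes above 50% had a median of 1172 TPM (308 to 2962). The lowest gene of that last class, Rpl22, was thus above every gene of the first class, whose highest was Rpl41, with a coding sequence of only 75 bases.

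The rank correlation of mean TPM with the unique share of the coding sequence was 0.858 across the 77 genes, a measure chosen after the values were seen. With the unique share of the whole messenger RNA it was 0.58. With coding length it was 0.10 and with listed gene length 0.0045, and with the number of pseudogenes that share a stretch it was -0.51. The points share both libraries, their depth and one annotation, so these values are descriptions. Of the 77 genes, 76 shared a 50-base stretch with at least 1 pseudogene, with a median of 9 pseudogenes and a maximum of 120 for Rpl7a. The 11 genes above 50% unique coding sequence had a 90th percentile 7.11 times the 10th. That class was picked on a measure that ranked with level and held only genes from 308 to 2962 TPM. Its ratio therefore cannot be compared with those of the unselected lists. The sources used here do not say how reads that fit several places were counted, and the part of this in the low levels was not tested.

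**Figure D3:**
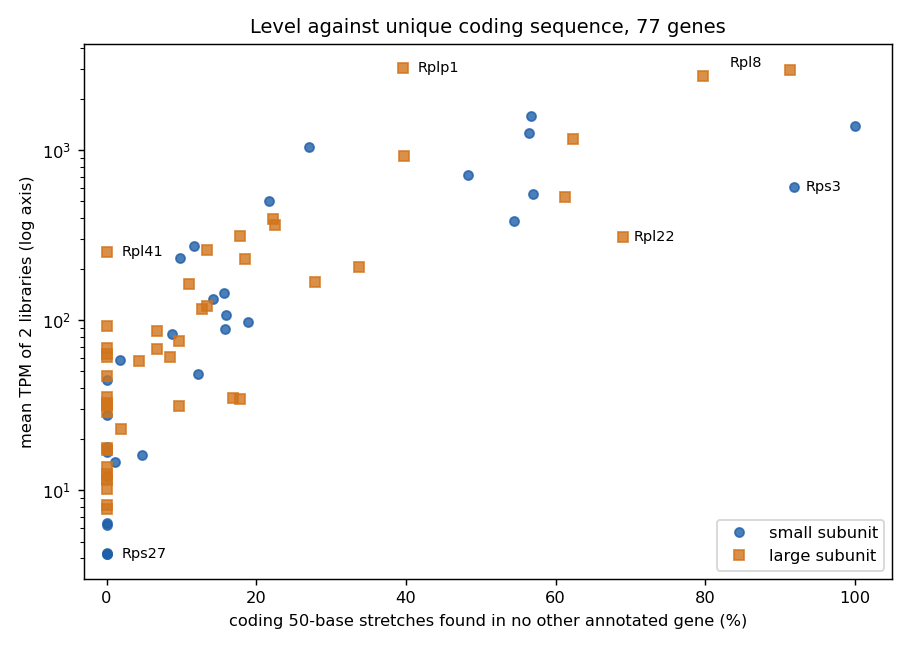
Mean TPM of the 2 libraries (log axis) against the percentage of coding 50-base stretches found in no other annotated gene, for 77 core genes, with small subunit genes as circles and large subunit genes as squares. Genes at 0% lie between 4.20 and 253 TPM, and all 11 genes above 50% lie at 308 TPM or more. The point of Rpl24, at 0%, takes its level from a row that carries the span of another gene.

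Reads were counted in the copies as well as in the parents. Of the rows listed in the files, 676 were annotated pseudogenes that share at least one 50-base stretch with a member, and 408 had more than 3 counts in each library. They summed to 21630 counts in replicate 1 and 18208 in replicate 2, which is 7.42% and 7.78% of the counts of the members. For 13 core genes the pseudogene rows held more counts than the gene's own row in both libraries. These were Rps2, Rps12, Rps7, Rpsa, Rpl21, Rpl23a, Rpl38, Rpl19, Rps16, Rps13, Rps6, Rps27 and Rps29, whose mean TPM ran from 4.20 to 107. With the pseudogene rows added to the parents, the 90th percentile of the core genes was 47.9 times the 10th, in place of 88.3.

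Single copies stood out. Rps7, a small subunit protein that binds Mdm2, had 144 and 102 counts, while Gm6472, a transcribed processed pseudogene on the X chromosome that shares 51.8% of the 50-base stretches of Rps7, had 1158 and 461. Rpl14 had 3279 and 2526 counts and its copy Rpl14-ps1 1354 and 847. Rps24 had 4025 and 2658 counts, while Gm8292 had 1754 and 1298 and Rps24-ps3 had 770 and 809. In each of these cases the copy row was well above its counting floor of 3 counts in both libraries. Rps18 had 829 and 1034 counts, and Gm10260, an intronless Rps18 copy that GENCODE annotates as protein-coding, had 2382 and 1380.

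Some parent and copy rows differed between the libraries in opposite directions. Rps3a1 had 2693 counts in replicate 1 and 1575 in replicate 2, while Rps3a3 had 17 and 1238. Their sum was 2710 and 2813 counts, a log2 ratio of replicate 2 to replicate 1 of 0.24 after scaling by library size, against -0.59 for Rps3a1 alone. The other copy shown above, Rps3a2, had 72 and 57 counts. Rpsa had 247 and 187 counts while Rpsa-ps10 had 18 and 952, and here the sum was unequal too, at 265 and 1139 counts (log2 ratio 2.29). The copies Rps3a3 and Rpsa-ps10 were thus near the floor in one library and at 1238 and 952 counts in the other.

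In further families the copy had fewer counts in replicate 2. Rpl26, a large subunit protein that regulates p53 translation, had 1206 and 1397 counts, and its copy Gm15772 had 416 and 175. Their sum was 1622 and 1572 counts, a log2 ratio of 0.14 against 0.40 for Rpl26 alone. Rps18 and Gm10260 summed to 3211 and 2414 counts, with a log2 ratio of -0.23 against 0.50 for Rps18 alone. Rplp0 had 12496 and 11458 counts, and 2 of its copies had fewer in replicate 2, Gm8730 with 946 and 355 counts and Rplp0-ps1 with 499 and 222. In all 3 families the gene was scaled higher in replicate 2 while the named copies were lower. With all its pseudogene rows added, Rplp0 had 14945 and 12607 counts and a log2 ratio of -0.06, against 0.06 alone.

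**Figure D4:**
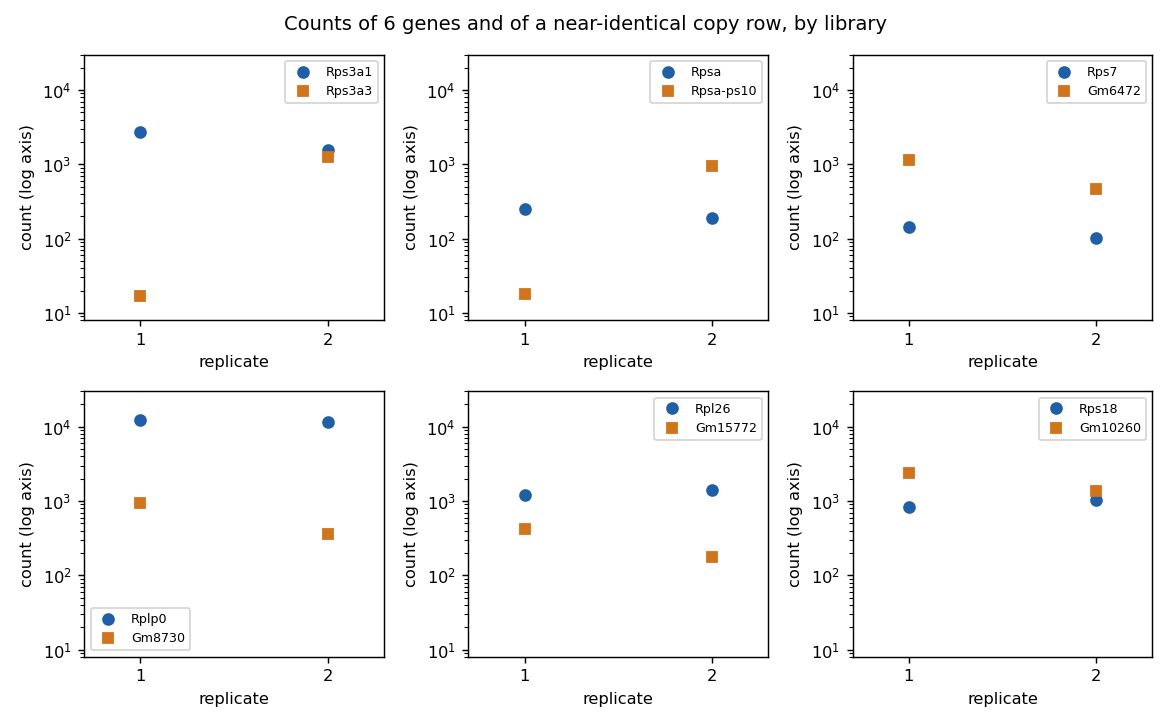
Counts (log axis) in each library of 6 genes (circles) and of a copy row of each (squares). Of these copies, coding identity was computed only for Rps3a3 and Rpsa-ps10. Rps3a3 and Rpsa-ps10 have 17 and 18 counts in replicate 1 and 1238 and 952 in replicate 2, while the copies of Rps7, Rplp0, Rpl26 and Rps18 are lower in replicate 2.

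The libraries themselves were compared gene by gene, since the design holds no second group. For each of 19433 genes with 10 or more counts, 84 of them members, the counts were tested by an exact binomial test, two-sided and adjusted by Benjamini-Hochberg. It compares these 2 libraries and not conditions, and its only noise is counting error. Of the members, 3 were higher in replicate 2 and 33 were lower at an adjusted p under 0.05, or 3.57% and 39.3%. Over all genes tested, 8.85% were higher and 8.65% were lower. The shift was small: the median log2 ratio was -0.15 over the members and -0.014 over all genes tested, and 67 members were on the lower side and 17 on the higher. With the edgeR exact test, which allows for a spread between libraries (common dispersion 0.00639), 0 members were higher and 3 lower, where 0.751% of all genes were called. That dispersion was estimated from the same 2 libraries taken as a single group. The differences under test thus enter it, and a call marks a gene that differed more than most genes did.

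Most members have many counts, which makes small differences detectable. Among genes whose summed count was 1000 or more, 32 of 58 members (55.2%) were lower and 3 higher, beside 15.3% lower and 14.7% higher of all 8685 such genes. Other genes of short listed length had a median of similar size. The 211 genes that were no members and had at least 1000 counts and at most 1000 listed bases had a median log2 ratio of -0.13. Of these, 38.4% were lower. Members of that listed length had a median of -0.17 (16 genes) and those of longer listed length -0.13 (42 genes). For 8416 genes of longer listed length that were no members it was -0.014. Listed length is not message length: Rps15a has 6262 listed bases and a reference messenger RNA of 640. Of 76 mitochondrial ribosomal protein genes, 20 were lower and 0 higher (median -0.13). The sum of the liver markers was higher in replicate 2, and so was that of the 3 neuron markers, at 1.96 and 8.62 TPM with Mnx1 at 0 counts in both. The part of these cells in the ratios was not tested.

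The largest differences were in 4 members that passed the test with at least a 1.5-fold change, beside 2.35% of all genes tested. Rpl35a, a large subunit protein (chr16:33056453-33060189, plus strand), had 44.6 and 24.2 TPM and a log2 ratio of -0.92 (95% interval -1.06 to -0.78), with an adjusted p of 4.1e-39 by the exact binomial test. Rpl29, a large subunit protein that shares stretches with 81 pseudogenes, had 40.3 and 22.5 TPM and a log2 ratio of -0.88. Rpl3, which reaches the peptidyl transferase centre, had 73.3 and 42.1 TPM and a log2 ratio of -0.84. These 3 were also called by the edgeR exact test, with adjusted p of 0.00010, 0.015 and 0.0017. With their pseudogene rows added, the log2 ratios were -0.77 for Rpl35a, -0.37 for Rpl29 and -0.46 for Rpl3, the latter both under 1.5-fold. Rps3a1 was the fourth (324.9 and 222 TPM), and Rps6 had a log2 ratio of -0.71 that did not pass (exact binomial adjusted p 0.066).

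At the other end, Rps18 (39.2 and 57.1 TPM, log2 ratio 0.50) and Rpl26 (98.4 and 133 TPM, 0.40) passed the exact binomial test, and the small excess of Rplp0 (0.06) passed on its many counts. Rps12 (26.0 and 29.8 TPM, log2 ratio 0.16), Rpl28 (29.7 and 33.5 TPM, 0.13) and Rpl5 (30.8 and 34.3 TPM, 0.12) were next and did not pass. Of the other stalk proteins, Rplp1 (-0.25) and Rplp2 (-0.23, 218 and 191 TPM) were lower. With the pseudogene rows of each added, the ratio was -0.06 for Rplp0, -0.24 for Rplp1 and -0.23 for Rplp2, so the direction of Rplp0 turned. Rps27, with 3 and 13 counts, had a log2 ratio of 2.13 with a counting interval of 0.44 to 4.75. Of the other lists, translation factors had 6 genes higher and 11 lower of 37, biogenesis genes 2 and 8 of 55, surveillance and growth signalling genes 0 and 1 of 10 and Diamond-Blackfan genes 1 and 6 of 17. Over all genes tested, 8.85% were higher and 8.65% lower, or 14.7% and 15.3% of those with at least 1000 counts.

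**Figure D5:**
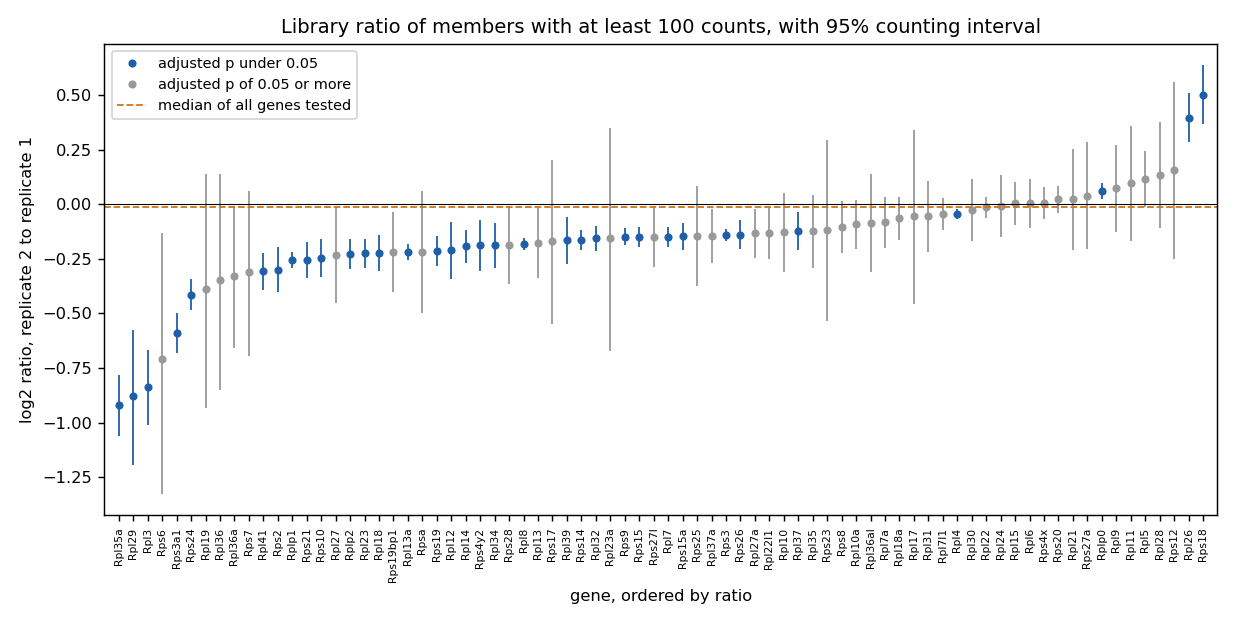
Log2 ratio of replicate 2 to replicate 1 for 76 of the 78 members with at least 100 counts over both libraries, ordered by ratio, with vertical lines for the 95% counting interval and blue points for an adjusted p under 0.05 by the exact binomial test. Most members lie between -0.3 and 0, below the dashed line at the median of all genes tested (-0.014).

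On the TPM scale, some paralogs were as high as or higher than their core partner. Rpl22l1, a paralog of the large subunit protein Rpl22 (chr3:28805436-28807424, plus strand), was at 317 and 297 TPM, and Rpl22 at 306 and 311 TPM, so the ratio was 1.04 and 0.956. The listed length, by which TPM divides, was 489 bases for Rpl22l1 and 2911 for Rpl22. By count Rpl22l1 was lower, with 1316 and 1057 against 7549 and 6583. Per coding base it was lower too, at 424 and 397 against 2317 and 2358. Their coding sequences were 69.4% identical over the aligned bases, and 69.0% of the coding stretches of Rpl22 and 17.4% of those of Rpl22l1 were unique. Rps27l (chr9:66946086-66949516, plus strand) was at 138 and 128 TPM, 99.5 and 18.2 times Rps27, whose own value rests on 3 and 13 counts. The coding sequences of these were 76.2% identical, and 51.7% of the coding stretches of Rps27l were unique beside none of Rps27.

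Rpl36al was at 31.2 and 30.2 TPM, 2.27 and 2.69 times its partner Rpl36a (13.7 and 11.2 TPM), with 87.7% of coding bases identical. Rpl7l1 was at 153 and 153 TPM, 0.404 and 0.435 times Rpl7 (379 and 352 TPM). Rps4y2, a row on chromosome 6 that GENCODE annotates at a transcribed processed pseudogene, was at 168 and 151 TPM, 0.733 and 0.641 times Rps4x (229 and 236 TPM). It was the only one of the other matches to pass the exact binomial test, with a log2 ratio of -0.19. Rps19bp1, which encodes a protein that binds Rps19 and is not itself a ribosomal protein, was at 80.9 and 71.4 TPM.

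The remaining matches were low or undetected. Rps12l2 was at 2.47 and 2.53 TPM from 8 and 7 counts. Rpl39l, a paralog known from the testis, had 8 counts in replicate 1 and 1 in replicate 2. Rpl3l, which replaces Rpl3 in mature striated muscle, had 0 and 5 counts. Rpl10l, a retrogene of Rpl10 known from the testis, was listed with 0 counts throughout, and its floor of 3 counts equals 0.346 TPM in replicate 1 and 0.404 TPM in replicate 2. Rps12l1 also had 0 counts, with floors of 0.713 and 0.832 TPM. The tissue-restricted paralogs were thus at or near the limit of detection at this depth.

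One row does not hold the gene its symbol names. The row listed as Rpl24 has the span and the length of Zbtb11 (chr16:55973883-56008913, length 7440 bases) and was at 13.5 and 13.8 TPM. Rpl24 itself lies beside it (chr16:55966275-55971435), where a row spelled RPL24 had 41 and 38 counts, or 4.69 and 5.08 TPM, which would place it among the 10 lowest core genes and below Rpl38. With that row in its place, the median over the core genes was the same to 3 digits.

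The start sites of the core genes were searched for the pyrimidine run known from ribosomal protein messages. Promoter sequences from RefSeq (GRCm38.p6), 250 bases before to 50 after the annotated start, were found for 57 of the 77 core genes. A run of at least 8 bases of C or T on the gene's strand, beginning within 10 bases of the start, was present in 19 of them (33.3%), against 9.17% of all 27025 genes in the table. The windows below, each 30 bases and 5′ to 3′ on the gene's strand, show genes from the top, middle and bottom of the range, with the run in capitals.
Rps26, chr10:128626485-128626514: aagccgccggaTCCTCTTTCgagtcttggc
Rpl13a, chr7:45128724-45128753: tgcgacaagaCCTCCTCCTTTCCCaggcgg
Rpl14, chr9:120571501-120571530: agggcgggCCCTCTCTCTTCTCgctgagcg
Rpl15, chr14:18270969-18270998: ggagaaagCCTTCTTCCTTTCCTCTggcgg
Rpl27a, chr7:109519183-109519212: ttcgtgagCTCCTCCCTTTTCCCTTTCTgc
Rpl38, chr11:114668570-114668599: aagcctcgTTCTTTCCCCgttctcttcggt
Rps6, chr4:86857347-86857376: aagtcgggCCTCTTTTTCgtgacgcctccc
Rps27, chr3:90213629-90213658: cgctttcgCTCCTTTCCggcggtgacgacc
The mean TPM of the genes with a run went from 4.20 (Rps27) to 1043 (Rps26), with a median of 89.5, and the 38 genes without one had a median of 65.7 (6.25 to 2717). Both sets thus covered nearly the whole range of levels.

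Other motifs were counted on both strands of the same windows. CCGGAAG, the core of an Ets family site, was in 40.4% of the 57 core promoters and in 9.12% of all promoters. GGGCGG, the core of a GC box, was in 59.6% and 35.9%, and AAGATGGCG, the core of a YY1 site, in 5.26% and 1.49%. TATAAA, the TATA box, was in 8.77% and 14.2%. A match describes these letters in this window and not a bound site.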

How the data were processed

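RNA of 2 wild-type pleuroperitoneal fold libraries was sequenced after selection of polyadenylated RNA with a stranded kit, per the labels' protocols. Per the submitters' processing notes, STAR 2.4.0a, SAMtools 1.3 and featureCounts were used and the build named is mm9. The listed positions of 85 of the 86 members found in GENCODE M21 overlapped their GRCm38 locus, so GENCODE M21 positions are given. Strand setting and treatment of reads with several hits are not given in the sources used here. The authors deposited raw counts per gene symbol and a TPM value from the count and the listed gene length. Because the strand setting is unknown, reads of overlapping genes on either strand cannot be told apart, and 11 core genes shared over 20% of their exon bases with another feature.

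Members and lists were chosen with earlier results of these data known. Values were named by rule: the 10 highest and 10 lowest core genes, all paralogs, the 5 highest and 5 lowest library ratios among members with at least 100 counts, the stalk proteins, 3 highest and 3 lowest Diamond-Blackfan genes, Fau and Rack1, and the 3 highest of every other list. Some items under the rule are not reported here. Copies and other members were chosen after their values were seen.

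Library ratios used counts plus 0.5 with TMM factors (edgeR 4.0.16). Alternatives used DESeq2 1.42.0 size factors, total counts, other count filters and the edgeR exact test. The quasi-likelihood test needs replicates on each side, so an exact binomial test (scipy 1.17.1) was run. It was tested on simulated counts that held counting error only, which cannot show how it behaves with a wider spread between libraries. P-values of the exact binomial test measure only counting error in 2 libraries, while those of the edgeR exact test also use the common dispersion. The floor of a count of 0 was taken as 3 counts. A stretch counted as unique when absent from GENCODE M21 transcripts of all genes at other loci, on either strand; the genome itself was not searched. Coding lengths came from GENCODE M21 where protein lengths had been planned. Identities were computed with biopython 1.88.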

Additional observations from a re-analysis of the deposited data

Results flagged for a closer look

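Several rows outside the members held signal above the floor of 3 counts in at least one library and share sequence with a core gene. Counts are given for replicates 1 and 2. Copies of Rps24 were Gm8292 with 1754 and 1298 counts and Rps24-ps3 with 770 and 809. Copies of Rplp0 were Gm8730 with 946 and 355 and Gm9625 with 742 and 466. Gm12090, which shares stretches with Rpl7, had 597 and 456. Rpl14-ps1 had 1354 and 847, and Gm6472, a copy of Rps7, had 1158 and 461. Gm10260, a copy of Rps18, had 2382 and 1380. Rps3a3 had 17 and 1238 counts, and Rpsa-ps10 had 18 and 952. The row spelled RPL24 had 41 and 38. Whether these reads came from the copies or from their parents was not tested.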

How the results depend on the processing

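No paired analysis was possible because the labels give a single group. The median of the core genes, averaged over the libraries, was 71.2 TPM, and 69.0 to 73.3 with either library left out. It was 79.4 without features under 200 bases, 79.3 without members that share over 20% of their exon bases, and, on scales of their own, 289 per coding base and 535 per unique 50-base start. The 90th percentile over the 10th was 88.3 on means, and 89.2 to 91.5 with either library left out. It was 101 per coding base and 66.0 without core genes under 10 TPM. Alternatives added after seeing the data gave 54.2 per unique start, 7.11 among core genes over 50% unique and 47.9 with pseudogene rows added. The share of counts was 1.06%, with 1.01 to 1.10% in single libraries, and 1.14% with all pseudogene rows that share a 50-base stretch. The 3 higher and 33 lower members became 0 and 3 by the edgeR exact test with a common dispersion, and 0 and 4 with a 1.5-fold minimum. Size factors, total scaling and count filters left 3 and 33, with a median ratio of -0.14 to -0.15. Of 39 named members, 17 kept their direction but lost the call by the edgeR exact test. The rank correlation of 0.58 was 0.49, 0.66 and 0.69 with stretches of 36, 75 and 100 bases, 0.858 for the coding sequence and 0.818 against the count per coding base, and 0.58 to 0.59 in single libraries. The cause of these shifts was not tested. At this depth the core genes Rps27, Rps29, Rps13, Rpl38 and Rps16, each with under 100 counts over both libraries, have wide intervals.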
